A study of Mus musculus with 6 samples.

Results

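Ki-67 knockout clone 1 of the mouse fibroblast line NIH/3T3 was compared with wild-type NIH/3T3 cells across all genes. The members were the 2 libraries titled as Ki-67 knockout clone 1 and the 2 titled as wild type, chosen by their titles, which makes 4 of the 6 libraries in the series. The other 2 libraries come from another knockout clone, clone 2, and are used here to ask which changes of clone 1 differ from those of clone 2. Ki-67, encoded by Mki67, is a large nuclear protein made by cycling cells and lost from resting ones, which is why pathologists stain for it to score proliferation. In interphase it sits around the nucleoli and at heterochromatin, and in mitosis it coats the chromosomes and keeps them apart. NIH/3T3 cells are immortalised fibroblasts from Swiss albino mouse embryos, a cell type that lays down collagen-rich matrix and carries a contractile actin skeleton.

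All cells were grown in high-glucose DMEM with 10% serum, and the groups differ by genotype: wild type on one side, and the labelled genotype Mki67-/- on the other. Each knockout group is a single clone, so that what the loss of Mki67 does and what distinguishes 1 clone cannot be told apart within clone 1. The sources used here do not give how the gene was edited, in which part, or how long each clone was passaged. One text of the labels, on RNA extraction, speaks of 4T1 knockout lines, whereas titles, source and tissue say NIH/3T3 fibroblasts. The defining epithelial marker Epcam, which carcinoma lines such as 4T1 typically carry, had 0 counts in all 6 libraries, and the fibroblast genes Vim and Col1a2 were at 3351 to 5393 and 1290 to 2156 CPM (counts scaled to library size). The labels do not say that the 2 libraries of a group came from separate cultures, so the p-values speak only to the spread among these libraries, and that spread may be technical.

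The libraries were strand-specific and made from total RNA depleted of ribosomal RNA. Reads were counted per gene on the reverse strand, and there were between 3873249 reads in genes (wild-type replicate 1) and 19678782 (clone 1 replicate 1), with wild-type replicate 2 at 11377172 and clone 1 replicate 2 at 15491116. A count of 3, used as the floor below which a gene cannot be told from 0, corresponds to 0.151 to 0.814 CPM depending on the library, and the value is highest in wild-type replicate 1. Replicates of a group differed by more than counting noise (chi-square per degree of freedom 12.8 for wild type and 20.1 for clone 1), and none was counted as a copy of another. Levels are given as CPM scaled by TMM factors, and differences as log2 fold changes with their standard error (SE) from edgeR's quasi-likelihood test over 13120 genes. A gene is said to have risen, fallen or been called when its p, adjusted by the Benjamini-Hochberg method over all genes tested, was below 0.05. CPM are not scaled to gene length, so levels are compared between libraries and not between genes.

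Mki67 itself (chr7:135689784-135716361, minus strand, GRCm38) checks the labels. It stood at 49.1 and 55.1 CPM in the wild-type libraries, at 4.24 and 4.58 in clone 1 and at 4.32 and 7.69 in clone 2. All 4 knockout libraries lay far below both wild-type libraries, and the remaining counts show that the transcript was reduced rather than missing. The fall in clone 1 was -3.57 ± 0.23 on the log2 scale (adjusted p = 1.18e-07). The clones were not called apart (clone 1 minus clone 2 -0.44 ± 0.24, adjusted p = 0.434), although a p of that size does not show that their levels were equal.

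Clone 1 differed from wild type in 4154 of the 13120 genes tested (31.7%), of which 1988 rose (15.2%) and 2166 fell (16.5%). At least a 2-fold change was seen for 599 of the genes that rose (4.57%) and 762 of those that fell (5.81%). The median log2 difference over all genes was 0.01 and the median size 0.36, against 0.77 among called genes. The number rested on 1 library more than on the others: without clone 1 replicate 2 it was 2205. For clone 2, which was compared with the same wild-type libraries, 3592 genes were called (27.4%).

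**Figure D1:**
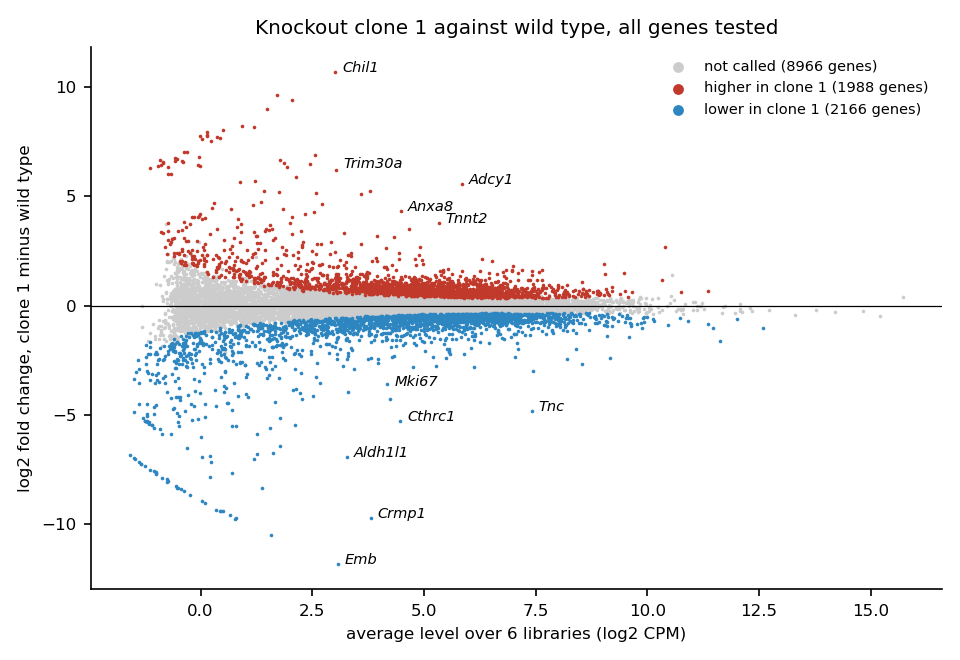
Each point is 1 of the 13120 genes tested, with its average level (log2 CPM, x axis) and its log2 fold change in clone 1 against wild type (y axis); coloured points are genes called at an adjusted p below 0.05. The called genes spread to both sides in near-equal numbers (1988 higher, 2166 lower), and the named genes lie at the edges of the cloud, with Mki67 at -3.57.

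The largest rises in clone 1 were in genes that wild-type cells barely expressed. Adcy1, an adenylyl cyclase that makes cyclic AMP, was at 2.44 and 1.17 CPM in wild type and at 73.97 and 69.7 in clone 1, a rise of 5.56 ± 0.23 (adjusted p = 2.28e-09), with clone 2 at 91.2 and 92.2. Anxa8, a calcium-dependent membrane-binding annexin, was at 1.63 and 2.79 CPM in wild type and at 54.04 and 44.1 in clone 1 (log2 4.31 ± 0.25, adjusted p = 5.98e-08). Clone 2 held 8.94 and 11.7 CPM of it, between the other groups with no overlap. Tnnt2, the troponin T of heart muscle, went from 4.88 and 5.59 CPM to 74.6 and 73.7 (log2 3.79 ± 0.18, adjusted p = 1.2e-08) and was at 38.05 and 31.9 in clone 2. For both genes clone 1 stood further from wild type than clone 2 did, and the difference between the clones was itself called (Anxa8 2.25 ± 0.18, adjusted p = 5.27e-06; Tnnt2 1.08 ± 0.14, adjusted p = 0.000349).

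In a pair of other large rises the 3 groups did not overlap and clone 1 was highest. Nfatc1, a calcium-regulated transcription factor, was at 2.71 and 6.22 CPM in wild type, 31.03 and 31.5 in clone 1 and 13.1 and 12.7 in clone 2 (log2 2.61 ± 0.24 above wild type and 1.28 ± 0.19 above clone 2, adjusted p = 2.62e-06 and 0.0012). The phospholipase gene Plb1 was at 1.36 and 1.62 CPM in wild type, 16.4 and 14.8 in clone 1 and 7.46 and 7.10 in clone 2 (log2 3.33 ± 0.26 above wild type, adjusted p = 7.31e-07). The cathepsin gene Ctsw stood at 1.63 and 3.51 CPM in wild type, 22.9 and 19.02 in clone 1 and 7.65 and 10.03 in clone 2 in the same order of groups, but its difference between the clones was lost without clone 2 replicate 1 (adjusted p = 0.0656) and after thinning to equal depth (0.0691). Optn, an adaptor for selective autophagy, was at 1.90 and 2.79 CPM in wild type against 21.7 and 23.7 in clone 1 (log2 3.16 ± 0.23). Sod3, the secreted superoxide dismutase, was at 2.98 and 3.60 CPM against 29.2 and 31.5 (log2 3.15 ± 0.22). For these the difference between the clones was not called (adjusted p = 0.206 for Optn and 0.12 for Sod3). Col7a1, whose product forms the anchoring fibrils under epithelia, was at 5.70 and 8.20 CPM in wild type, 49.2 and 45.4 in clone 1 and 30.2 and 32.6 in clone 2 (log2 2.68 ± 0.19 above wild type, adjusted p = 2.91e-07).

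A pair of strong rises had almost no counts in wild type, so that their fold is a bound or carries a wide interval. Chil1, a secreted chitinase-like protein, had 0 counts in both wild-type libraries, 13.7 and 16.4 CPM in clone 1 and 4.99 and 6.51 in clone 2, which makes it at least 73.4-fold higher in clone 1 against a floor of 3 counts over the wild-type group. Trim30a, an interferon-inducible regulator of inflammatory signalling, had 2 counts in wild type and 8.78 and 12.3 CPM in clone 1, a ratio of 76.5 with an exact 95% counting interval of 21.03 to 634. Trim30a belongs to a cluster of near-identical genes, and reads shared between copies make its level uncertain. Such intervals cover counting error only.

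The largest falls included genes that clone 1 had lost to the last count. Emb, which encodes embigin, a cell-surface partner of monocarboxylate transporters, was at 25.5 and 39.01 CPM in wild type and had 0 counts in both libraries of both clones, at least 425-fold lower in clone 1. Crmp1, a cytosolic phosphoprotein of growing axons, was at 56.7 and 51.4 CPM in wild type and kept 2 counts in clone 1, a wild-type to clone 1 ratio of 943 (exact 95% counting interval 260 to 7799). Aldh1l1, the folate enzyme formyltetrahydrofolate dehydrogenase, was at 37.7 and 37.9 CPM in wild type and at 0.303 and 0.314 in clone 1 (log2 -6.90 ± 0.26, adjusted p = 1.17e-09). Clone 2 was as low for all of them, with at most 0.370 CPM in any library.

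Tnc, the matrix glycoprotein tenascin-C, was at 486 and 499 CPM in wild type, 17.2 and 18.3 in clone 1 and 17.6 and 17.5 in clone 2, the clones being nearly level (log2 -4.80 ± 0.14 below wild type in clone 1, adjusted p = 9.06e-11). Cthrc1, a secreted protein that limits collagen deposition, was at 68.7 and 75.4 CPM in wild type against 1.51 and 2.32 in clone 1 (log2 -5.25 ± 0.21, adjusted p = 1.5e-09). Cd34, a sialomucin of fibroblast and progenitor surfaces, was at 373 and 389 CPM in wild type, 52.8 and 43.5 in clone 1 and 102 and 100.2 in clone 2. Its groups did not overlap and clone 1 was lowest, by -1.07 ± 0.13 against clone 2 (adjusted p = 0.000278). Tenm4, a teneurin adhesion receptor, was at 48.3 and 62.9 CPM in wild type against 3.03 and 2.76 in clone 1 (log2 -4.27 ± 0.23), Brinp3 at 23.6 and 39.5 against 1.97 and 2.26 (log2 -3.95 ± 0.26) and Agap2, a regulator of Arf GTPases, at 31.2 and 29.7 against 4.19 and 3.89 (log2 -2.90 ± 0.19). Cebpd, a transcription factor of the acute-phase response and of adipogenesis, was at 169 and 154 CPM in wild type, 23.6 and 21.9 in clone 1 and 29.5 and 36.99 in clone 2 (log2 -2.82 ± 0.15 in clone 1, adjusted p = 3e-08). Gas2, a growth-arrest gene whose product binds actin and microtubules, was at 47.8 and 72.2 CPM in wild type against 9.33 and 8.29 in clone 1 (log2 -2.79 ± 0.20, adjusted p = 3.13e-07).

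**Figure D2:**
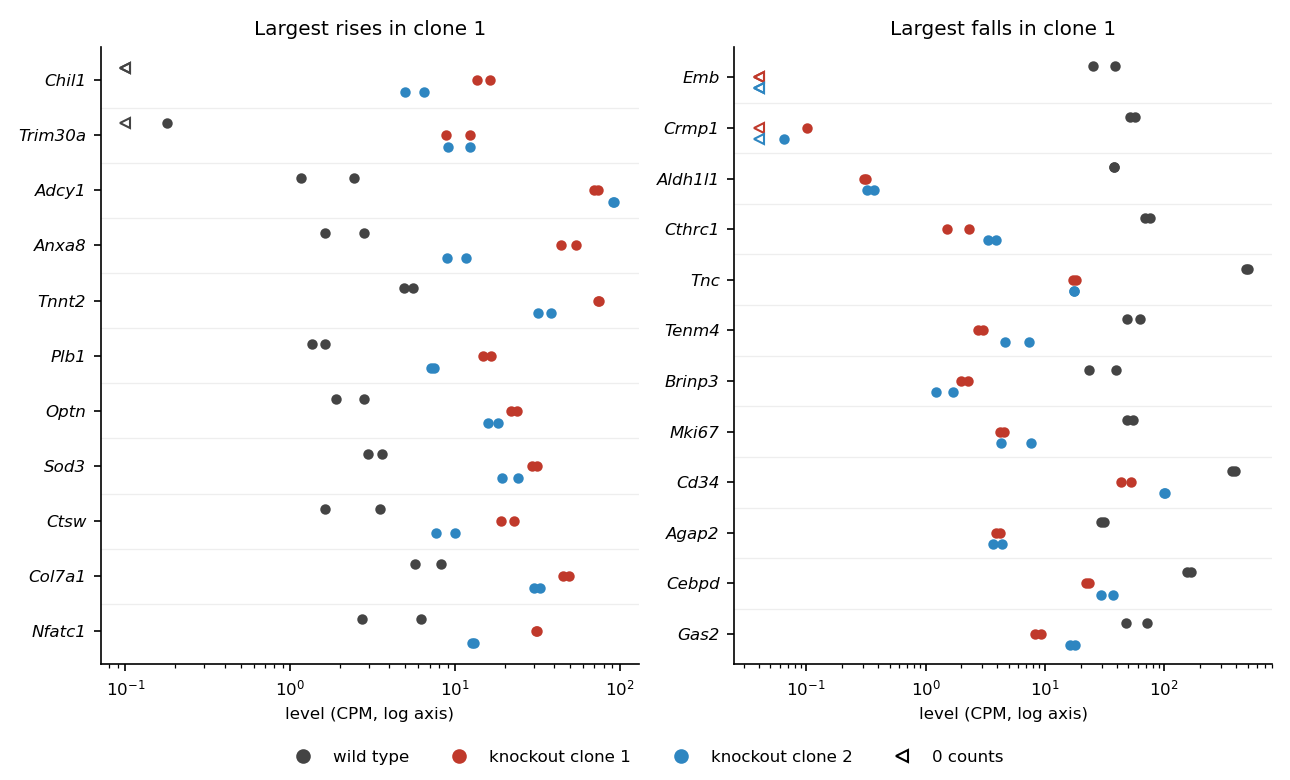
CPM in each library (log x axis) of 11 of the 12 strongest rises and the 12 strongest falls, by fold, of well-expressed protein-coding genes called in clone 1 against wild type; points are single libraries, coloured by group, and open triangles mark libraries with 0 counts. The clone 1 points are clear of the wild-type points in every row, as they are for 4141 of all 4154 genes called in clone 1. The clone 2 points lie between them for genes such as Anxa8, Tnnt2 and Cd34.

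In all, 20 genes were counted in wild type (mean of at least 2 CPM) and had 0 counts in both clone 1 libraries, and every one of them was protein-coding. After Emb these were led by Pxdc1 (at least 162-fold lower), the calcium channel gene Calhm2 (at least 91.9-fold), the peptidylarginine deiminase Padi4 (at least 94.3-fold), the fucose mutarotase Fuom (at least 70.1-fold), the fibrillar collagen Col11a1 (at least 85.4-fold) and the glycosyltransferase Galnt12 (at least 68.5-fold). The forkhead factor Foxf1 (at least 74.9-fold), the small proteoglycan Dcn (at least 76.6-fold) and the zinc-finger factor Sall2 (at least 57.2-fold) followed. Clone 2 had 0 counts for 12 of the 20. The exception at the other end was Zfp287, a zinc-finger gene at 2.44 and 1.89 CPM in wild type and 0 counts in clone 1. Clone 2 expressed it at 1.67 and 1.498 CPM, and it was singled out after its values were seen.

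In the other direction 10 genes, 6 of them protein-coding, were counted in clone 1 and not in wild type. Beside Chil1 they were Itln1, a secreted lectin (at least 35.8-fold higher), Dusp27 (at least 22.3-fold), Tmem40 (at least 11.6-fold), Mfng, a glycosyltransferase that modifies Notch (at least 11.03-fold), and Rapgef5, an activator of Rap GTPases (at least 9.65-fold). All of them had counts in clone 2. Mfng had 1 count there, against 2.27 and 2.20 CPM in clone 1, and Itln1 stood at 0.370 and 0.521 CPM in clone 2 against 7.87 and 6.53 in clone 1. This list depended on the deeper wild-type library, since without wild-type replicate 2 it held 27 genes.

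Genes of the integrated stress response, the programme that the factor ATF4 switches on when translation slows or amino acids run short, moved in 1 direction in clone 1. Of 42 tested members 27 fell, none rose and 15 were not called (64.3% called, against 31.7% of all genes), with a median log2 change of -0.55. For clone 2, measured against the same wild-type libraries, 27 fell and 1 rose, with a median of -0.53 (over all genes tested 14.5% fell and 12.9% rose in clone 2). The count of members that fell was 18 without clone 1 replicate 2, and 4 members rose beside 24 that fell without wild-type replicate 2, as did 1 beside 24 without clone 1 replicate 1. The 10 effectors of the response had 8 falls, the 14 genes of amino acid synthesis and import 10, the 12 tRNA ligases 6 and the 6 transcription factors 3.

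Among the effectors, Trib3, a pseudokinase that feeds back on the response, was at 73.5 and 111 CPM in wild type, 23.6 and 20.8 in clone 1 and 29.5 and 35.5 in clone 2 (log2 -2.07 ± 0.19 in clone 1, adjusted p = 2.53e-06). Ddit3, listed with the transcription factors, encodes the death-promoting factor CHOP. It was at 41.5 and 57.7 CPM in wild type, 15.1 and 16.01 in clone 1 and 20.4 and 21.2 in clone 2 (log2 -1.70 ± 0.17, adjusted p = 7.68e-06). The effector Chac1, which breaks down glutathione, was at 83.3 and 116 CPM in wild type, 37.6 and 31.5 in clone 1 and 56.9 and 61.1 in clone 2 (log2 -1.55 ± 0.16, adjusted p = 1.16e-05). In each of these genes the 2 clone 1 libraries were the lowest of the 6. Cth, the last enzyme of the route from methionine to cysteine, was at 23.3 and 29.1 CPM in wild type, 5.90 and 3.89 in clone 1 and 3.45 and 2.15 in clone 2 (log2 -2.43 ± 0.24 in clone 1, adjusted p = 6.47e-06). Slc7a11, the cystine importer, was at 6.78 and 10.4 CPM in wild type, 2.22 and 2.26 in clone 1 and 3.45 and 3.71 in clone 2 (log2 -2.02 ± 0.25, adjusted p = 5.19e-05). Both genes supply cysteine to the cell, and both were lower in every knockout library than in any wild-type library.

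Mthfd2, a mitochondrial enzyme of one-carbon metabolism, was at 229 and 227 CPM in wild type, 97.6 and 83.00 in clone 1 and 146 and 146 in clone 2 (log2 -1.33 ± 0.13 in clone 1, adjusted p = 5.56e-06). Pycr1, the last step of proline synthesis, was at 34.5 and 34.3 CPM in wild type, 18.4 and 16.01 in clone 1 and 25.3 and 28.9 in clone 2 (log2 -0.995 ± 0.16 in clone 1, adjusted p = 0.000382). Mthfd2, Chac1 and Pycr1 were lower in clone 1 than in clone 2 (log2 -0.69, -0.77 and -0.65, adjusted p = 0.00621, 0.0142 and 0.0275). For Mthfd2 and Chac1 that difference was lost without clone 1 replicate 2, clone 2 replicate 1 or clone 2 replicate 2 (adjusted p from 0.0706 to 0.161), and for Pycr1 without any single library of either clone (0.0644 to 0.387) and after thinning (0.238). Asns, the asparagine synthetase often used as a readout of the response, fell less, from 619 and 642 CPM to 491 and 432 (log2 -0.45 ± 0.13, adjusted p = 0.0178), and lost its call without clone 1 replicate 2 (adjusted p = 0.184). The transcript of Atf4 itself was at 991 and 1093 CPM in wild type and 893 and 813 in clone 1 (log2 -0.29 ± 0.14, adjusted p = 0.119), below the wild-type libraries in both but not called. In bulk RNA, less of a transcript in each cell and fewer cells that carry it cannot be told apart.

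The promoters of these genes are known for short elements that ATF4 and its partners bind, and those of 4 members that fell and hold such a run of letters are shown for that reason. They are the 250 bases before the start of the gene in RefSeq's annotation of GRCm38.p6, each on the strand of its gene, and capitals mark matches to TGATGNAAN on either strand.
Chac1, chr2:119350992-119351241, plus strand: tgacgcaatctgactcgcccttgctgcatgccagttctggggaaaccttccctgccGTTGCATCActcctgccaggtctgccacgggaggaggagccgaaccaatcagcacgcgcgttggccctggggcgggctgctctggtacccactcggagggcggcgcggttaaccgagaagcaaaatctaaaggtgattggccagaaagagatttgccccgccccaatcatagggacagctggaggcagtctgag
Slc7a11, chr3:50443614-50443863, minus strand: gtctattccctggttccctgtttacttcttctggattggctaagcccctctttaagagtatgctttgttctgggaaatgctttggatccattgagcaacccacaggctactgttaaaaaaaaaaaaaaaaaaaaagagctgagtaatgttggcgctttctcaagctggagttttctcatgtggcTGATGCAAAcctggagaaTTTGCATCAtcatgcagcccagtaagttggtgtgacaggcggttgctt
Pycr1, chr11:120643749-120643998, minus strand: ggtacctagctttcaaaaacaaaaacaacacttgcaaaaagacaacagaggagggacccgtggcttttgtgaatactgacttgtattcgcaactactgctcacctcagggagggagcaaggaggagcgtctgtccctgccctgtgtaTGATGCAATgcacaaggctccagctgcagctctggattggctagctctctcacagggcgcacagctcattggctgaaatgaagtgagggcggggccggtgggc
Asns, chr6:7693210-7693459, minus strand: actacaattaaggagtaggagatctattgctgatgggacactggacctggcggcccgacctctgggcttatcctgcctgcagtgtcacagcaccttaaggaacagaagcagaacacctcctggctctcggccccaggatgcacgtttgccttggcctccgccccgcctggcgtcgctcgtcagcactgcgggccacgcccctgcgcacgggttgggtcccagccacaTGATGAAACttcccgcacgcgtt
The match began 194 bases before the start of Chac1, 103 before that of Pycr1 and 23 before that of Asns, and Slc7a11 had 2 matches, at 66 and 48 bases. Of the 38 list members with a listed promoter, 10 held a match (26.3%), as did 7 of the 23 that fell in clone 1 (30.4%) and 950 of the 27025 promoters listed there (3.52%). The promoter of Trib3, which fell further than the 4 genes shown, held none. A match is a run of letters in this window and not a measured binding site.

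Smooth muscle actin genes separated the clones: clone 2 had lost most of their transcript and clone 1 had not. Acta2, smooth muscle alpha-actin and the usual mark of myofibroblasts, was at 1021 and 803 CPM in wild type and at 1020.4 and 1037 in clone 1, where the groups overlapped (log2 0.17 ± 0.14, adjusted p = 0.381). In clone 2 it was at 154 and 165 CPM. The clones differed by 2.69 ± 0.15 (adjusted p = 1.83e-07). Tagln, the actin-bundling protein transgelin, was at 24.4 and 16.6 CPM in wild type, 12.6 and 13.1 in clone 1 and 0.925 and 0.651 in clone 2. Myl9, a myosin regulatory light chain, was at 15.2 and 9.64 CPM in wild type, 5.45 and 6.84 in clone 1 and 0.493 and 0.651 in clone 2. Clone 1 stood above clone 2 by 4.00 ± 0.28 for Tagln and 3.40 ± 0.34 for Myl9 (adjusted p = 1.6e-06 and 3.01e-05). Both also fell below wild type in clone 1 (log2 -0.62 ± 0.21, adjusted p = 0.0322, and -0.93 ± 0.24, adjusted p = 0.00992). The call of Tagln was lost without either clone 1 library or without wild-type replicate 1 (adjusted p 0.0881 to 0.186) when reads of both strands were counted (0.605), with DESeq2 (0.0536) and after thinning (0.179), and that of Myl9 without clone 1 replicate 1 (0.0635).

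Over the 29 tested genes of smooth muscle and actin contractility, 8 rose and 4 fell in clone 1 (41.4% called, against 31.7% of all genes), with a median of 0.15. In clone 2, by contrast, 2 rose and 10 fell (12.9% and 14.5% of all genes). Clone 1 was called above clone 2 for 10 of the 29 genes and below it for 1 (2.36% and 1.18% of all genes tested). Actn1, an alpha-actinin that ties actin to adhesions, was at 169.9 and 195 CPM in wild type, 310.2 and 348 in clone 1 and 182 and 161 in clone 2 (log2 0.85 ± 0.13 above wild type, adjusted p = 0.00039; 0.94 ± 0.13 above clone 2, adjusted p = 0.000799). Des, the muscle intermediate filament desmin, was at 6.51 and 7.66 CPM in wild type, 20.99 and 20.03 in clone 1 and 10.7 and 11.2 in clone 2 (log2 1.496 ± 0.19 above wild type, adjusted p = 5.53e-05). Mylk, the kinase that switches on myosin light chains, rose by 0.91 ± 0.23 (adjusted p = 0.00854). The actin-monomer buffers went down: Tmsb4x, at 746 and 701 CPM in wild type, 136 and 132 in clone 1 and 46.00 and 42.1 in clone 2, fell by 2.43 on the log2 scale (SE 0.13, adjusted p = 3.07e-08), and Tmsb10 changed by -0.86 ± 0.14 (adjusted p = 0.000437). Tmsb4x has processed copies in the genome, and reads shared with them make its level uncertain.

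**Figure D3:**
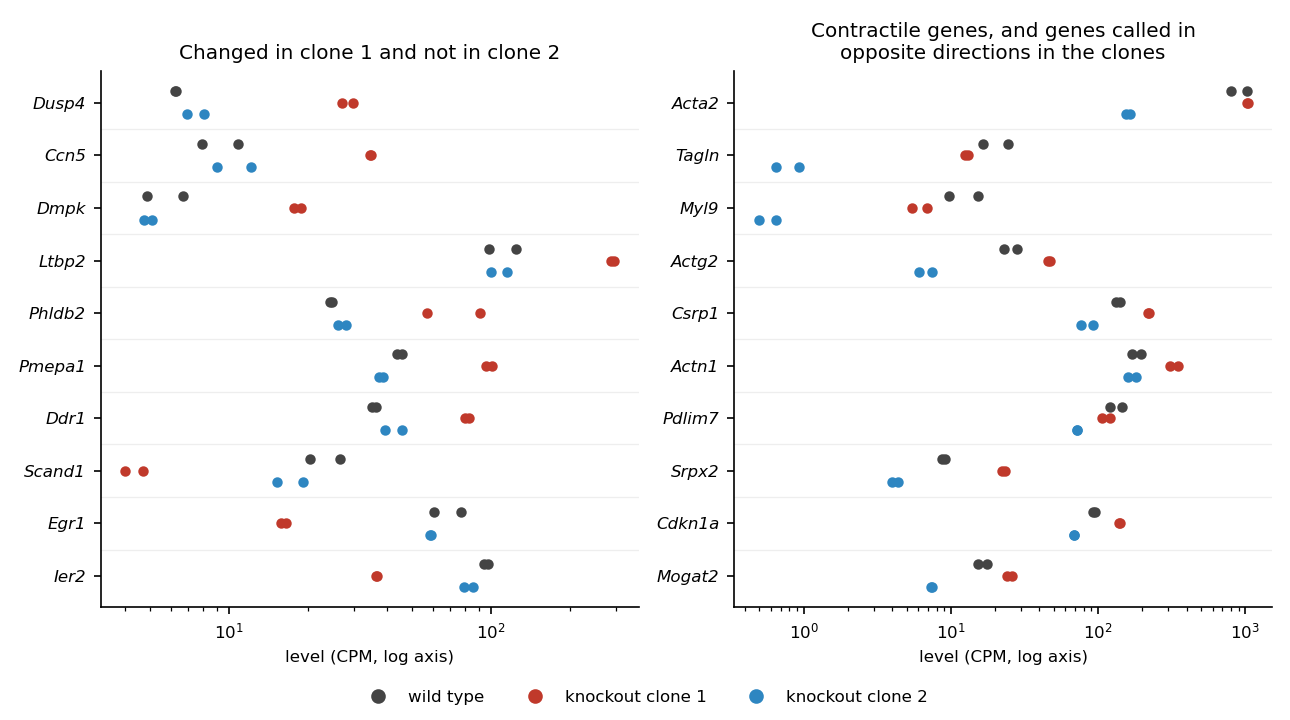
CPM in each library (log axis) for genes whose level differed between the clones. On the left are genes changed in clone 1 and not in clone 2. On the right are contractile genes and genes called in opposite directions in the clones. On the left the clone 1 points stand apart from those of wild type and clone 2, which follows largely from the rule that picked these genes. On the right clone 1 is level with or above wild type for Acta2, Actg2 and Csrp1, and clone 2 is below both. Tagln and Myl9 fell in clone 1 as well, and Actn1 rose in clone 1 and was not called in clone 2 against wild type.

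To name changes of clone 1 that clone 2 did not share, a gene had to be called in clone 1 against wild type, be called in the same direction in clone 1 against clone 2, and not be called in clone 2 against wild type. Of the 4154 genes called in clone 1, 1412 were not called in clone 2, but for only 184 of these was the difference between the clones itself called (1.4% of genes tested), 123 of them higher in clone 1 (0.938%) and 61 lower (0.465%). Clone 1 was called against clone 2 for 465 genes in all (3.54%). A further 96 genes changed in the same direction in both clones with clone 1 further from wild type and the clone difference called, and 39 with clone 2 further. The 184 is a number that single libraries move: it was 84 and 92 without clone 1 replicate 1 or 2, 82 and 69 without clone 2 replicate 1 or 2, and 430 and 364 without wild-type replicate 1 or 2. Of the 24 genes named for this pattern, 10 kept their clone difference under every alternative run for that comparison (the minimum fold was not), and these 10 are described first.

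Dusp4, a nuclear phosphatase that switches off MAP kinases, was at 6.24 and 6.31 CPM in wild type, 29.8 and 27.1 in clone 1 and 8.02 and 6.90 in clone 2. The clone 1 libraries stood apart from the other 4 (log2 2.18 ± 0.19 above wild type, adjusted p = 2.44e-06; 1.93 ± 0.17 above clone 2, adjusted p = 8.02e-06). Ccn5, a secreted matricellular growth regulator, was at 7.87 and 10.8 CPM in wild type, 34.6 and 34.9 in clone 1 and 9.003 and 12.1 in clone 2 (log2 1.83 ± 0.20 and 1.72 ± 0.18, adjusted p = 1.51e-05 and 4.6e-05). Dmpk, the kinase gene of myotonic dystrophy, was at 4.88 and 6.67 CPM in wild type, 18.8 and 17.7 in clone 1 and 4.75 and 5.08 in clone 2 (log2 1.58 ± 0.21 and 1.89 ± 0.19, adjusted p = 7.22e-05 and 2.72e-05). In these genes the lowest clone 1 library was above every wild-type and clone 2 library, and the clone 2 and wild-type libraries lay close together.

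Ltbp2, a microfibril protein of the latent TGF-beta binding family, was at 98.2 and 124 CPM in wild type, 288 and 295 in clone 1 and 99.8 and 115 in clone 2 (log2 1.38 ± 0.14 above wild type and 1.44 ± 0.14 above clone 2, adjusted p = 1.03e-05 and 2.66e-05). Pmepa1, a membrane protein that dampens TGF-beta signalling and is a target of it, was at 43.96 and 45.9 CPM in wild type, 96.2 and 101 in clone 1 and 38.7 and 37.3 in clone 2 (log2 1.13 ± 0.13 and 1.38 ± 0.13, adjusted p = 2.34e-05 and 1.36e-05). Phldb2, a scaffold at the cell cortex and around adhesions, was at 24.4 and 24.8 CPM in wild type, 57.2 and 90.6 in clone 1 and 26.1 and 27.9 in clone 2, so its clone 1 libraries were high but far from each other (log2 1.58 ± 0.20 above wild type, adjusted p = 5.26e-05). Ddr1, a receptor kinase for collagen, was at 36.4 and 35.1 CPM in wild type, 82.5 and 79.4 in clone 1 and 39.3 and 45.8 in clone 2 (log2 1.18 ± 0.14 and 0.93 ± 0.13, adjusted p = 3.13e-05 and 0.000808).

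Scand1, a small SCAN-domain protein, had the largest fall among the 12 genes named for this pattern, which are limited to well-expressed ones. It was at 26.6 and 20.4 CPM in wild type, 4.69 and 4.02 in clone 1 and 15.3 and 19.2 in clone 2 (log2 -2.39 ± 0.21 below wild type and -1.98 ± 0.20 below clone 2, adjusted p = 2.48e-06 and 4.12e-05). Both clone 1 libraries were the lowest, although clone 2 also lay under the wild-type libraries without being called (log2 -0.41, adjusted p = 0.127). Egr1, the serum-response zinc-finger factor, was at 60.5 and 76.7 CPM in wild type, 16.5 and 15.8 in clone 1 and 59.2 and 58.8 in clone 2 (log2 -2.10 ± 0.15 and -1.87 ± 0.15, adjusted p = 3.74e-07 and 4.53e-06). Ier2, another early serum-response gene, was at 97.4 and 93.96 CPM in wild type, 36.4 and 36.7 in clone 1 and 78.6 and 85.2 in clone 2 (log2 -1.39 ± 0.13 and -1.16 ± 0.12, adjusted p = 3.21e-06 and 5.87e-05).

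The other 14 named genes lost the clone difference under at least 1 alternative and are given as values. Mustn1, a muscle regeneration gene, was 1.87 above wild type on the log2 scale and 1.13 above clone 2, Ahcyl2 1.27 and 0.86, the red-cell enzyme Bpgm 1.23 and 0.83, Zfp697 1.21 and 0.77, and the centrosomal Cep41 1.14 and 0.90. Plat, tissue plasminogen activator, was at 15.7 and 26.8 CPM in wild type, 5.50 and 8.79 in clone 1 and 14.2 and 15.4 in clone 2 (log2 -1.65 against wild type and -1.06 against clone 2). The differences from wild type and from clone 2 were -1.30 and -0.78 for Tkfc, -1.25 and -1.03 for Camta1, -1.23 and -0.92 for Kank3, and -1.18 and -0.82 for the lysosomal enzyme Naglu. They were -1.18 and -0.94 for the matrix protein Efemp1, -1.13 and -0.92 for Acad10, -1.11 and -0.71 for the mitochondrial carrier Sfxn5, and -1.04 and -0.71 for Tigar, which slows glycolysis. Libraries whose removal ended a clone difference were in most cases those of clone 2: without clone 2 replicate 2, for example, Bpgm had an adjusted p of 0.0787 and Camta1 of 0.097, and without clone 2 replicate 1 Mustn1 had 0.104.

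A smaller set of 12 genes moved in opposite directions in the clones, 11 of them higher in clone 1 (0.0838% of genes tested) and 1 lower (0.00762%). Without clone 2 replicate 1 the set held 7 genes. Srpx2, a secreted sushi-repeat protein, was at 8.68 and 9.10 CPM in wild type, 22.3 and 23.3 in clone 1 and 4.38 and 3.97 in clone 2 (log2 1.35 ± 0.18 in clone 1 and -1.10 in clone 2 against wild type, adjusted p = 0.000101 and 0.00175). Actg2, the enteric smooth muscle actin, was at 27.9 and 23.1 CPM in wild type, 46.8 and 45.8 in clone 1 and 6.04 and 7.49 in clone 2 (log2 0.89 ± 0.16 in clone 1, adjusted p = 0.00114). Csrp1, a LIM protein of actin fibres, was at 142 and 133 CPM in wild type, 223 and 219 in clone 1 and 76.8 and 92.2 in clone 2 (log2 0.69 ± 0.13 in clone 1, adjusted p = 0.00157). For each of these the order was clone 2, wild type, clone 1 with no overlap, and the clones differed by 2.44, 2.77 and 1.39 (adjusted p = 2.03e-06, 4.06e-07 and 1.91e-05). Cdkn1a, which encodes the cell-cycle inhibitor p21, kept to the same order at smaller distances, with 92.3 and 94.7 CPM in wild type, 139 and 140.4 in clone 1 and 68.6 and 68.2 in clone 2 (log2 0.58 ± 0.12 in clone 1, adjusted p = 0.00266; 1.03 between the clones, adjusted p = 0.000131).

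Mogat2, an enzyme of triglyceride assembly, was at 15.2 and 17.7 CPM in wild type, 25.9 and 24.1 in clone 1 and 7.34 and 7.49 in clone 2. Plac8 was at 19.5 and 20.1 CPM in wild type, 28.7 and 27.4 in clone 1 and 5.86 and 7.88 in clone 2. Their rises in clone 1 (0.58 and 0.50) were the least secure: that of Mogat2 was lost without clone 1 replicate 1 (adjusted p = 0.0622), and that of Plac8 without any library but wild-type replicate 1 (0.0531 to 0.112), with DESeq2 (0.0795) and after thinning (0.125). Lower in level, the skeletal muscle actin Acta1 was at 2.44 and 1.71 CPM in wild type, 14.1 and 13.1 in clone 1 and 0.308 and 0.326 in clone 2 (log2 2.82 ± 0.26 in clone 1, adjusted p = 3.25e-06), and the galactosyltransferase gene B4galt4 was at 5.70 and 7.03 CPM in wild type, 12.9 and 12.9 in clone 1 and 0 counts in clone 2 (at least 135-fold higher in clone 1 than in clone 2). The 1 gene lower in clone 1 and higher in clone 2 was Ppargc1a, a coactivator of mitochondrial genes, at 0.543 and 0.991 CPM in wild type, 0.303 and 0.126 in clone 1 and 2.10 and 3.06 in clone 2; wild-type replicate 1 and clone 1 replicate 2 are under 3 counts, and its fall in clone 1 (adjusted p = 0.0367) was lost without wild-type replicate 2 or clone 1 replicate 2 (0.48 and 0.184) and with DESeq2 (0.0957). Acta1, B4galt4 and Ppargc1a were named after their values were seen.

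The immediate early genes, which serum and growth factors switch on within minutes, were divided in clone 1. Of 36 tested members 7 rose and 16 fell (63.9% called, against 31.7% of all genes, of which 15.2% rose and 16.5% fell), with a median of -0.28, and none of the 7 AP-1 factors rose while 4 fell. Of the same genes 5 rose and 9 fell in clone 2 (12.9% and 14.5% of all genes). The count of rises was 3 without clone 1 replicate 2. Egr2, a relative of Egr1, was at 10.04 and 11.7 CPM in wild type, 1.36 and 1.57 in clone 1 and 2.84 and 3.26 in clone 2 (log2 -2.92 ± 0.25 in clone 1, adjusted p = 1.49e-06). Fosb, an AP-1 factor, changed by -1.63 ± 0.25 (adjusted p = 0.000347). Fos was low in level, at 2.98 and 3.69 CPM in wild type, 1.26 and 0.628 in clone 1 and 2.71 and 2.80 in clone 2. Egr3 was at 4.88 and 6.76 CPM in wild type, 2.57 and 2.57 in clone 1 and 5.55 and 5.80 in clone 2. Both were called lower in clone 1 than in wild type (adjusted p = 0.00164 and 0.00197), Egr3 not so without wild-type replicate 2 (0.0815) and Fos not so with libraries thinned to equal depth (0.138).

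Brakes on receptor signalling moved both ways. Spry1, an inhibitor of receptor kinase signalling, was at 6.51 and 9.37 CPM in wild type and kept 2 counts in clone 1, a ratio of 155 (exact 95% counting interval 42.0 to 1291). It stood at 1.17 and 0.716 CPM in clone 2. Its relative Spry4 changed by -1.37 ± 0.18 (adjusted p = 9.37e-05), and Dusp6, the cytosolic phosphatase of ERK, was at 208 and 194 CPM in wild type against 114 and 106 in clone 1 (log2 -0.87 ± 0.13, adjusted p = 0.000183). Beside Dusp4, Dusp1 went the other way, at 113 and 93.6 CPM in wild type, 174 and 159 in clone 1 and 79.9 and 85.7 in clone 2 (log2 0.70 ± 0.14 above wild type and 1.01 ± 0.13 above clone 2, adjusted p = 0.00166 and 0.000436). Ier3 rose from 78.97 and 55.6 to 139.5 and 134 CPM (log2 1.05 ± 0.16, adjusted p = 0.000239). Dusp1, Dusp4, Egr1, Egr3, Fos and Ier2 were the list members that met the rule for a change of clone 1 not seen in clone 2. The clone difference of Egr3 was lost without any single library of either clone (adjusted p 0.055 to 0.104) and that of Fos without clone 1 replicate 2 or either clone 2 library (0.0974 to 0.142), with DESeq2 (0.0808) and after thinning (0.700).

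Targets of YAP and TEAD, the transcriptional arm of the Hippo pathway that reads cell density and tension, rose more often than they fell. Of 21 tested, 11 rose and 1 fell in clone 1 (57.1% called, against 31.7% of all genes), with a median of 0.50. In clone 2 there were 10 rises and 1 fall (12.9% and 14.5% of all genes). Ccn2, connective tissue growth factor, was at 921 and 713 CPM in wild type, 1913 and 1789 in clone 1 and 1181 and 1154 in clone 2 (log2 1.18 ± 0.15 in clone 1, adjusted p = 7.32e-05). Ccn1 was at 324 and 229 CPM in wild type, 763 and 732 in clone 1 and 566 and 567 in clone 2 (log2 1.44 ± 0.16, adjusted p = 1.77e-05). Crim1, a transmembrane binder of BMPs, was at 67.3 and 52.2 CPM in wild type against 164 and 201 in clone 1 (log2 1.63 ± 0.16), and the pentraxin Ptx3 at 0.271 and 0.270 against 8.98 and 10.5 (log2 5.12 ± 0.40). Foxf2 was the member that fell (log2 -0.72 ± 0.13, adjusted p = 0.00114).

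Matrix genes moved in both directions. Their shares stand beside the 31.7% of all genes called (15.2% higher, 16.5% lower). Among 36 genes of fibrillar collagens and their partners 9 rose and 14 fell (63.9% called, median -0.33), 4 and 12 without clone 1 replicate 2. Col3a1 was at 451 and 865 CPM in wild type against 162 and 171 in clone 1 (log2 -1.99 ± 0.22, adjusted p = 2.08e-05). Col1a1 was at 287 and 368 CPM against 536 and 501 (log2 0.66 ± 0.15, adjusted p = 0.00471). These are the chief collagens of loose connective tissue, and they moved in opposite directions. Col1a2, the partner chain of Col1a1, was not called (1289.8 and 2071 CPM in wild type, 1429 and 1466 in clone 1; log2 -0.22 ± 0.19), and its difference changed sign without wild-type replicate 2 (0.17). Fmod, the collagen-binding proteoglycan fibromodulin, had 2 counts in wild type and was at 11.4 and 13.8 CPM in clone 1 and 0.678 and 0.912 in clone 2 (clone 1 to wild type ratio 92.0, exact 95% counting interval 25.3 to 762). Loxl4, an enzyme that cross-links collagen, went from 21.2 and 20.99 to 1.16 and 1.19 CPM (log2 -4.15 ± 0.23).

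Of 16 matricellular genes 7 rose and 7 fell (87.5% called), 7 and 4 without wild-type replicate 2. Thbs1, thrombospondin 1, was at 342 and 378 CPM in wild type against 919.9 and 1076 in clone 1 (log2 1.47 ± 0.15, adjusted p = 7e-06). Spp1, osteopontin, was at 561 and 928 CPM in wild type, 115 and 118 in clone 1 and 261 and 245 in clone 2 (log2 -2.68 ± 0.19 against wild type and -1.12 ± 0.19 against clone 2, adjusted p = 3.74e-07 and 0.00319). Matrix proteases and their inhibitors had 6 rises and 8 falls among 21 (66.7% called), the falls being 4 without wild-type replicate 2 and 5 without clone 1 replicate 2. Plau, urokinase, was at 166 and 160.3 CPM in wild type, 64.1 and 53.9 in clone 1 and 101 and 104 in clone 2 (log2 -1.46 ± 0.13, adjusted p = 2.56e-06), so that both plasminogen activators, Plat and Plau, were lower in clone 1 than in wild type. Adam12, a membrane metalloprotease, was at 32.02 and 28.6 CPM in wild type, 4.84 and 3.89 in clone 1 and 0 counts in clone 2 (log2 -2.77 ± 0.20 in clone 1; at least 46.5-fold higher in clone 1 than in clone 2).

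Basement membrane genes numbered 16, with 1 rise and 4 falls (31.2% called, near the 31.7% of all genes), and 2 rises without wild-type replicate 1 or 2. The laminin chain Lama4 was at 11.7 and 24.1 CPM in wild type against 2.12 and 1.76 in clone 1 (log2 -3.28 ± 0.30). Lama2 was at 6.78 and 16.4 CPM against 0.101 and 0.126 (log2 -6.72 ± 0.54). Both clone 1 values of Lama2 were under the floor of 3 counts, so the size of its fold is uncertain. The wild-type libraries differed widely in Lama4 and Lama2, and both lay above every knockout library. Of 19 integrins, cadherins and syndecans 8 rose and 3 fell (57.9% called), with 5 rises without clone 1 replicate 1 or 2. Itgb7 was at 34.7 and 27.6 CPM in wild type against 139 and 114 in clone 1 (log2 2.05 ± 0.16). Itgav, the alpha chain of vitronectin receptors, was at 43.7 and 47.02 CPM against 89.8 and 128 (log2 1.26 ± 0.17). Its partner Itgb3 was at 15.7 and 10.5 CPM in wild type against 3.03 and 2.39 in clone 1 (log2 -2.19 ± 0.27, adjusted p = 5.25e-05).

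Guidance genes, named for steering axons and also used by fibroblasts to sense neighbours, fell more often than they rose. Of 36 tested, 2 rose and 20 fell (61.1% called, against 31.7% of all genes), with a median of -0.49. There were 4 rises and 17 falls in clone 2 (12.9% and 14.5% of all genes). Slit3, a secreted repellent, was at 12.8 and 14.8 CPM in wild type against 0.303 and 0.502 in clone 1 (log2 -5.12 ± 0.30, adjusted p = 6.37e-08). Unc5b, a netrin receptor, was 1 of the 2 rises, at 99.6 and 111 CPM in wild type, 313 and 329 in clone 1 and 161 and 169 in clone 2 (log2 1.60 ± 0.13 above wild type and 0.96 ± 0.12 above clone 2, adjusted p = 9.4e-07 and 0.000349). The other was Nrp2, a semaphorin co-receptor, at 56.98 and 95.7 CPM against 165 and 188 (log2 1.18 ± 0.19).

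**Figure D4:**
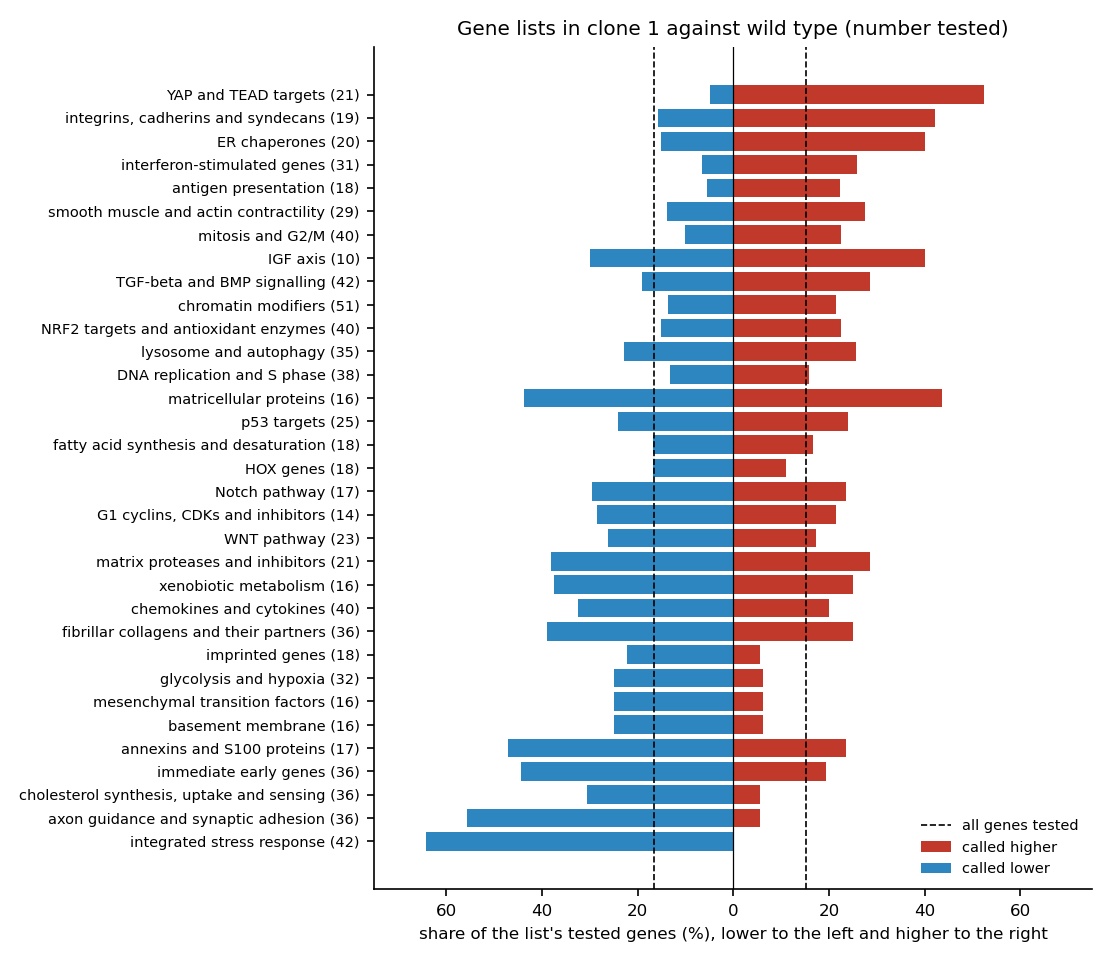
For each gene list, bars give the percent of its tested members called higher (right) and lower (left) in clone 1 against wild type; dashed lines are the shares over all 13120 genes, 15.2% and 16.5%. The integrated stress response has no bar to the right and guidance genes a short one, whereas the bar of the YAP and TEAD targets lies almost wholly to the right.

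Among genes of cell division, where Ki-67 itself acts, those of mitosis and of replication were called about as often as all genes. Of all genes tested 31.7% were called, 15.2% higher and 16.5% lower. Of 40 genes of mitosis and G2/M 9 rose and 4 fell (32.5% called, median 0.14), the falls being 0 and the rises 5 without clone 1 replicate 2 and the falls 2 without clone 2 replicate 1. There were 13 rises and 0 falls in clone 2 (12.9% and 14.5% of all genes). The 4 that fell in clone 1 were Cdc25b, Cdca8, Melk and Ccnb1. Ckap2l, a spindle protein, was at 11.1 and 15.4 CPM in wild type, 26.3 and 37.3 in clone 1 and 43.6 and 35.6 in clone 2 (log2 1.20 ± 0.21 in clone 1, adjusted p = 0.000873). The checkpoint kinase Bub1 rose by 1.17 ± 0.21 and the spindle motor Kif11 by 0.99 ± 0.21 (adjusted p = 0.00102 and 0.00337). Of 38 replication genes 6 rose and 5 fell (28.9% called), with 10 rises without wild-type replicate 1, 1 fall without clone 1 replicate 2, and 3 falls without clone 1 replicate 1 or either clone 2 library. Rrm2, the subunit of ribonucleotide reductase made in S phase, was at 151 and 121 CPM against 227 and 220.1 (log2 0.72 ± 0.14, adjusted p = 0.00125). Pola1, the catalytic subunit of primase-polymerase, was at 14.9 and 15.3 CPM against 23.8 and 35.5 (log2 0.96 ± 0.20). Of 14 G1 cyclins, CDKs and inhibitors 3 rose and 4 fell (50% called). Cdk4, the G1 kinase, was at 1182 and 964 CPM in wild type, 639 and 577 in clone 1 and 645 and 688 in clone 2 (log2 -0.82 ± 0.14 in clone 1, adjusted p = 0.00084). Targets of p53 were split, with 6 rises and 6 falls among 25 (48% called). Ccng1 was at 137 and 151 CPM against 212 and 283 (log2 0.78 ± 0.15) and Eda2r at 6.24 and 9.91 against 15.8 and 20.8 (log2 1.08 ± 0.22), whereas Bbc3, the death gene PUMA, changed by -1.18 ± 0.21 and Plk3 by -1.06 ± 0.15.

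In lipid and detoxifying metabolism, the 36 genes of cholesterol synthesis, uptake and sensing had 11 falls and 2 rises (36.1% called, near the 31.7% of all genes). The falls were 7 without clone 1 replicate 2, and the rises 0 to 4 without 1 library or another. Dhcr7, the last enzyme of cholesterol synthesis, was at 51.8 and 55.3 CPM in wild type, 22.4 and 20.97 in clone 1 and 24.2 and 26.1 in clone 2 (log2 -1.31 ± 0.14 in clone 1, adjusted p = 1.71e-05). Slc25a1, the mitochondrial citrate exporter that feeds lipid synthesis, was at 294 and 255 CPM in wild type against 143 and 126 in clone 1 (log2 -1.03 ± 0.14). Ahr, the aryl hydrocarbon receptor that senses foreign aromatic compounds, was at 0.271 and 0.360 CPM in wild type, 7.52 and 9.92 in clone 1 and 8.26 and 7.69 in clone 2 (log2 4.65 ± 0.41 in clone 1, adjusted p = 2.18e-06). Its target Tiparp rose by 1.53 ± 0.18 (adjusted p = 3.54e-05). The main mitochondrial aldehyde dehydrogenase Aldh2 was at 99.3 and 107 CPM in wild type against 20.1 and 19.4 in clone 1 (log2 -2.39 ± 0.14, adjusted p = 5.98e-08).

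Of 40 NRF2 targets and antioxidant genes 9 rose and 6 fell (37.5% called), 7 and 3 without clone 1 replicate 2. Over all genes tested 15.2% rose and 16.5% fell (31.7% called). Gsta4, a glutathione transferase for lipid peroxidation products, was at 169.6 and 164 CPM in wild type, 682 and 577 in clone 1 and 761 and 751 in clone 2 (log2 1.92 ± 0.14, adjusted p = 3.74e-07). Nqo1, a quinone reductase, was at 82.8 and 78.5 CPM in wild type, 257 and 229 in clone 1 and 175.2 and 189.5 in clone 2 (log2 1.59 ± 0.13, adjusted p = 1.37e-06). The rises among 20 ER chaperones (8, with 3 falls; 55% called) were 3 without clone 1 replicate 2 and 4 without clone 1 replicate 1, and the falls 5 without wild-type replicate 2. Hspa5, the chaperone BiP, lost its call of 0.69 (adjusted p = 0.0113) without clone 1 replicate 2 (0.138). Of 32 genes of glycolysis and hypoxia 2 rose and 8 fell (31.2% called), 0 and 4 without clone 1 replicate 2, with 0 or 1 rise without clone 1 replicate 1 or either clone 2 library. The share of these 32 genes called was near the 31.7% of all genes. Pfkp, a phosphofructokinase, was at 48.3 and 51.1 CPM in wild type against 23.01 and 21.1 in clone 1 (log2 -1.18 ± 0.15). Ndrg1, a hypoxia-induced gene, was at 187 and 189 CPM against 97.9 and 83.4 (log2 -1.05 ± 0.13).

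Of 40 chemokines, cytokines and their receptors 8 rose and 13 fell (52.5% called, against 31.7% of all genes). Il1rl1, the IL-33 receptor ST2 and long known as a serum-induced gene of these cells, was at 1128 and 1247 CPM in wild type, 227 and 224 in clone 1 and 352 and 291 in clone 2 (log2 -2.40 ± 0.15 in clone 1, adjusted p = 8.02e-08). Ackr3, a scavenging chemokine receptor, was at 99.05 and 83.96 CPM in wild type against 23.6 and 22.3 in clone 1 (log2 -1.99 ± 0.14). Cxcl5, a neutrophil attractant, was at 8.14 and 4.95 CPM in wild type, 23.2 and 27.00 in clone 1 and 56.6 and 56.5 in clone 2, and so rose less in clone 1 than in clone 2 (log2 2.06 ± 0.22 against wild type and -1.18 ± 0.16 against clone 2, adjusted p = 1.03e-05 and 0.000728). Of 18 antigen presentation genes 4 rose and 1 fell (27.8% called, below the 31.7% of all genes), with a median of 0.31. The 1 that fell was H2-K1, a classical MHC class I gene with near-identical relatives. It was at 79.2 and 71.2 CPM in wild type, 33.4 and 32.1 in clone 1 and 17.02 and 17.5 in clone 2 (log2 -1.19 ± 0.14 in clone 1, adjusted p = 2.52e-05).

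Among 42 genes of TGF-beta and BMP signalling 12 rose and 8 fell (47.6% called, median 0.19), the falls being 5 without wild-type replicate 2. Id2, a BMP target that blocks differentiation factors, was at 57.8 and 69.9 CPM in wild type, 198 and 195 in clone 1 and 163 and 180.0 in clone 2 (log2 1.61 ± 0.14 in clone 1, adjusted p = 1.99e-06). The BMP antagonist Chrd changed by -1.504 ± 0.26 and the activin receptor Acvr2b by -1.41 ± 0.24 (adjusted p = 0.000792 and 0.000621). In the IGF axis Igfbp4, which holds IGF away from its receptor, was at 6.24 and 12.5 CPM in wild type, 45.3 and 43.9 in clone 1 and 25.2 and 24.1 in clone 2 (log2 2.11 ± 0.22 in clone 1, adjusted p = 8.2e-06). Igf2r, the receptor that clears IGF2, was at 26.6 and 51.4 CPM in wild type, 12.6 and 14.2 in clone 1 and 1.42 and 1.04 in clone 2, so that clone 1 fell by less than clone 2 did (3.43 ± 0.32 between the clones, adjusted p = 1.8e-05). Of the WNT genes, Lgr4, an R-spondin receptor, was at 14.1 and 29.2 CPM in wild type against 80.4 and 123 in clone 1 (log2 2.12 ± 0.25, adjusted p = 3.18e-05). Rnf43, which removes WNT receptors from the surface, was at 5.97 and 6.94 CPM against 0.353 and 0.440 (log2 -4.04 ± 0.34). Dlk1, a Notch-family ligand of preadipocytes, was at 162 and 179.9 CPM against 51.6 and 52.8 (log2 -1.72 ± 0.13). Of 16 mesenchymal transition factors 1 rose and 4 fell (31.2% called, near the 31.7% of all genes), with a median of -0.18. The 1 rise was Prrx2, a homeobox gene of limb mesenchyme. It was at 36.6 and 29.3 CPM in wild type, 72.96 and 66.2 in clone 1 and 38.6 and 40.2 in clone 2 (log2 1.11 ± 0.15 in clone 1, adjusted p = 0.000101).

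Chromatin genes, named here because Ki-67 organises heterochromatin, showed 11 rises and 7 falls among 51 (35.3% called, near the 31.7% of all genes). There were 6 and 4 without clone 1 replicate 2, 4 falls without clone 1 replicate 1 and 18 rises without wild-type replicate 2. Cbx5, which encodes heterochromatin protein HP1 alpha, was at 180.4 and 273 CPM in wild type against 406 and 555 in clone 1 (log2 1.07 ± 0.20, adjusted p = 0.0011). Its silencing partner Trim28 was at 799 and 647 against 464 and 427 (log2 -0.70 ± 0.14, adjusted p = 0.00246). The polycomb cofactor Jarid2 changed by -1.07 ± 0.24 (adjusted p = 0.00383). Snrpn, an imprinted gene expressed from the paternal copy, was at 10.04 and 8.74 CPM in wild type, 2.62 and 2.76 in clone 1 and 10.1 and 10.2 in clone 2. Clone 1 alone was low (log2 -1.77 ± 0.22 against wild type and -1.91 ± 0.20 against clone 2, adjusted p = 5.52e-05 and 5.15e-05), and Snrpn met the rule for a change not seen in clone 2.

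Markers of cell identity moved within a fibroblast profile. The summed level of 14 fibroblast markers was 10002 to 11639 CPM in wild type and 7371 to 7878 in clone 1. Of 12 tested members 1 was higher and 7 lower, against 15.2% and 16.5% of all genes tested. The growth factor receptor Pdgfra, for example, was at 95.8 and 157 CPM in wild type against 60.1 and 73.7 in clone 1 (log2 -0.94 ± 0.19), and Vim fell by 0.59 (adjusted p = 0.00977), though not without clone 1 replicate 2 (0.0999). The 17 skeletal and cardiac muscle markers summed to 12.5 to 12.9 CPM in wild type, 98.1 to 98.6 in clone 1 and 41.0 to 47.1 in clone 2. Tnnt2, Acta1 and Ttn made up the 3 called rises among 6 tested, while the defining myogenic factors Myod1, Myog and Myf5 had 0 counts in all 6 libraries. Ttn, the giant sarcomere protein, was at 0 and 0.541 CPM in wild type against 6.76 and 9.29 in clone 1. The 14 epithelial markers summed to 2.07 to 2.17 CPM in wild type and 10.5 to 10.8 in clone 1, carried by Krt7, at 1.09 and 0.721 CPM in wild type, 8.53 and 9.04 in clone 1 and 2.28 and 2.41 in clone 2 (log2 3.41 ± 0.32 in clone 1); Epcam, Krt19, Cldn7 and Esrp1 were at 0 in all libraries. Endothelial markers summed to 39.6 to 45.8 CPM in wild type and 12.7 to 16.7 in clone 1, with Kdr, Cldn5 and Erg at 0, and immune markers to 20.5 to 26.3 and 34.1 to 37.0, with Adgre1, Cd3e and Laptm5 at 0. Neuronal and glial markers summed to 18.7 to 26.7 CPM in wild type and 5.90 to 6.05 in clone 1, where Nes, an intermediate filament of progenitors, went from 8.41 and 14.1 to 0.555 and 0.565 CPM. Adipocyte markers summed to 20.99 to 22.5 and 18.8 to 21.1 CPM, and those of cartilage and bone to 37.4 to 40.8 and 30.3 to 31.3. The part of other cells in these results was not tested.

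Among non-coding RNAs, Lncenc1, a long non-coding RNA of pluripotent cells, was at 0.814 and 0.811 CPM in wild type, 31.5 and 29.1 in clone 1 and 6.29 and 5.15 in clone 2 (log2 5.21 ± 0.28 above wild type and 2.40 ± 0.18 above clone 2, adjusted p = 3.16e-08 and 2.03e-06). The clone 1 libraries were the highest and clone 2 lay between. Small nuclear RNAs fell in 30 of 73 tested (41.1%) and rose in none (median -0.70), against 16.5% and 15.2% of all genes. Small nucleolar RNAs fell in 44 of 124 (35.5%) and rose in 3 (median -0.44). In clone 2, where 14.5% of all genes fell, the falls were 17 and 32. Rnu11, the U11 RNA of the minor spliceosome, was at 152 and 125 CPM in wild type against 49.1 and 36.98 in clone 1 (log2 -1.68 ± 0.16). Bc1, a small RNA made by polymerase III, was at 329 and 236 CPM against 60.1 and 50.9 (log2 -2.34 ± 0.16). Many small RNAs exist in near-identical copies, so these levels are uncertain.

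Over all genes tested 15.2% rose and 16.5% fell in clone 1, and these changes were unevenly spread over the chromosomes. On chromosome 4 39.4% of 789 tested genes fell and 4.94% rose (median -0.37), on chromosome 13 33.5% of 510 fell and 4.12% rose (median -0.32), and on chromosome 7 33.1% of 1001 fell and 8.19% rose (median -0.27). Chromosome 12 went the other way, with 36.1% of 488 rising and 7.38% falling (median 0.34). Clone 2 had medians of -0.36, -0.25, -0.26 and 0.15 on chromosomes 4, 13, 7 and 12. The median difference between clone 1 and clone 2 was 0.17 on chromosome 12, 0.18 on 15, 0.19 on 17 and -0.23 on 6, and lay between -0.10 and 0.04 on the others. Such medians can hide a stretch: between 20 and 30 Mb of chromosome 13 the difference was -0.34 over 75 genes. Of these, 43 fell in clone 1 and 17 in clone 2. This stretch was singled out after its values were seen. Among the genes named above, Tnc and Padi4 lie on chromosome 4, Emb and Pxdc1 on 13, and Mki67, Tenm4 and Gas2 on 7. The genes of a chromosome are not replicates, so these shares are given with no test.

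Chromosome 6 distinguished clone 1. It carries 4.94% of the genes tested and 33 of the 184 genes changed in clone 1 and not in clone 2 (17.9%). On all other chromosomes 15.3% of tested genes rose and 16.1% fell in clone 1 against wild type. Their median clone 1 minus clone 2 difference was -0.002. The genes of chromosome 6 lay in runs. From the first tested gene to Npn2, a boundary chosen after the values were seen, 40 of 98 genes rose and 7 fell in clone 1 against wild type, with a median clone 1 minus clone 2 difference of 0.27. The difference was greatest in the last stretch of that run, from 30 Mb to Npn2, where clone 1 lay above clone 2 for 26 of 29 genes (median 0.66). That stretch held 10 of the 16 rises on this chromosome that were not seen in clone 2, Bpgm and Cep41 among them. After Npn2, 44 of 550 genes rose and 154 fell, with a median difference between the clones of -0.29, and clone 1 lay below clone 2 for 450 genes. Between 80 and 90 Mb, 44 of 96 genes fell and 2 rose. Asns, Mthfd2, Aldh1l1, Actg2, Sfxn5 and Tigar also lie on chromosome 6. Without the genes of chromosome 6, 151 genes met the rule for a change not seen in clone 2.

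**Figure D5:**
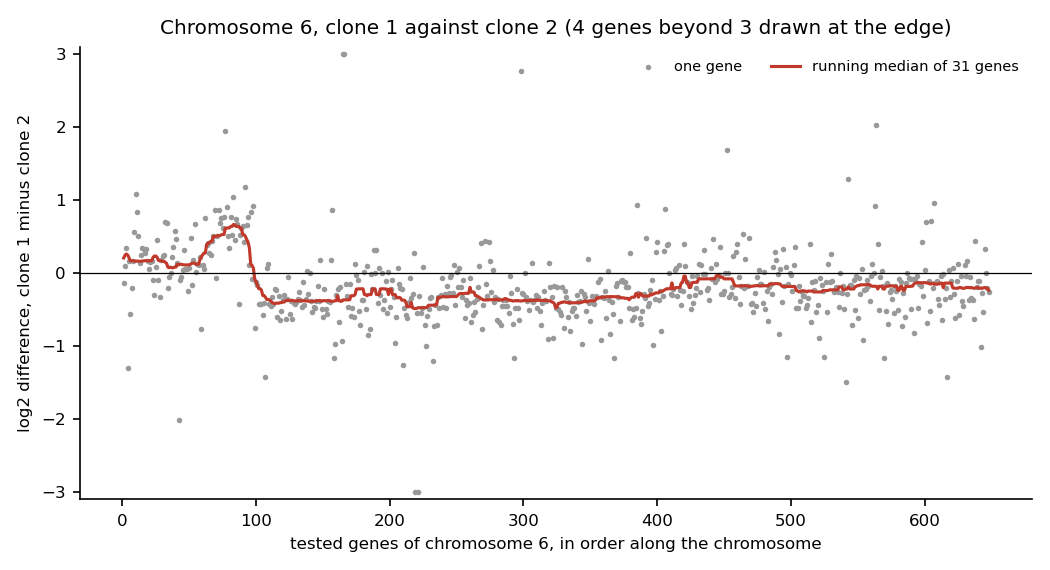
Each point is a tested gene of chromosome 6 in order along the chromosome (x axis, rank), with its log2 difference between clone 1 and clone 2 (y axis); the line is the running median of 31 genes, and 4 genes beyond 3 are drawn at the edge. The running median is above 0 over most of the left end, up to about the place of Npn2, and below 0 over most of the rest.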

How the data were processed

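RNA was sequenced from 6 NIH/3T3 libraries (2 wild type, 2 of knockout clone 1, 2 of knockout clone 2). The deposited files hold counts per gene, made by the authors with STAR 2.6.0c on GRCm38 after FastQC, per the submitters' processing notes. The annotation was not given in the sources used here. Each file gives unstranded, forward and reverse counts, and the reverse counts were used, because 4.68% to 6.10% of the stranded counts lay on the forward strand. The lines for unmapped, multimapping, ambiguous and no-feature reads (46.6% to 50.5% of reads) were left out. Of 54146 gene identifiers 54079 matched GENCODE M21, which gave symbols, biotypes and positions, and promoter sequences came from RefSeq.

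Genes were kept by edgeR's filterByExpr (minimum count 10), scaled by TMM (factors 0.951 to 1.03) and fitted with edgeR 4.0.16 in R 4.3.3 (glmQLFit and glmQLFTest, 1 coefficient per group over all 6 libraries, 3 residual degrees of freedom). All groups share 1 estimate of the spread. The SE is the size of the log2 fold change divided by the square root of F. Depth ran from 3873249 to 19678782 counts per library, and intervals and the floor of 3 counts cover counting error only, since reads are not independent molecules. On simulated counts for 13120 genes drawn from these libraries, the test of clone 1 against wild type called 20 of 50 genes changed 1.5-fold, 34 of 50 changed 2-fold, 42 of 50 changed 4-fold, 48 of 50 changed 8-fold, and 9 of 12664 unchanged genes. The changes were set in clone 1 alone, with all other genes equal across the groups. In the data 31.7% of genes were called, so these rates need not hold for the real comparison.

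The named genes are Mki67, the 12 largest rises and falls, the 12 each way changed in clone 1 and not in clone 2, up to 6 each way changed in opposite directions, up to 10 each way counted in 1 group only (protein-coding; an average log2 CPM of at least 3 except for the last), and up to 3 members each way of a list (average log2 CPM of at least 1). Of these, 3 are not reported here. The members, lists and tests were chosen with earlier results of these data known. Acta2, Tagln, Actn1, Chac1, Pycr1, Asns, Ddit3, Atf4, Mthfd2, Fos, Egr3, Fosb, Dusp6, Spry4, Ccn2, B4galt4, Acta1, Ppargc1a and Zfp287, and the promoters shown, were chosen after their values were seen. The 41 lists hold 1190 genes, and lists were described by counts with no set test. Alternatives were DESeq2 1.42.0, limma 3.58.1 (voom), other size factors, filters and strands, thinning to equal depth, a minimum fold, a replicate block and leaving out each library. Leaving out the genes of chromosome 6 was added after the data were seen.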

Additional observations from a re-analysis of the deposited data

Results flagged for a closer look

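The effect against wild type differed between the clones, by the test of clone 1 against clone 2 itself, for 184 genes that changed in clone 1 and were not called in clone 2. The 24 named among them differed as follows (log2, clone 1 minus clone 2). Higher in clone 1 were the phosphatase gene Dusp4 (1.93), Dmpk (1.89), the secreted Ccn5 (1.72), the cortical scaffold Phldb2 (1.45), the microfibril gene Ltbp2 (1.44), Pmepa1 (1.38), Mustn1 (1.13), the collagen receptor Ddr1 (0.93), Cep41 (0.90), Ahcyl2 (0.86), Bpgm (0.83) and Zfp697 (0.77). Lower in clone 1 were Scand1 (-1.98), the serum-response genes Egr1 (-1.87) and Ier2 (-1.16), the plasminogen activator Plat (-1.06), Camta1 (-1.03), Efemp1 (-0.94), Kank3 (-0.92), Acad10 (-0.92), Naglu (-0.82), Tkfc (-0.78), Sfxn5 (-0.71) and Tigar (-0.71).

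Of the 12 genes called in opposite directions in the clones, 6 were named by the rule. The enteric actin Actg2 differed by 2.77, Srpx2 by 2.44, Plac8 by 2.03, Mogat2 by 1.75, the actin-fibre gene Csrp1 by 1.39 and the cell-cycle inhibitor Cdkn1a by 1.03. All 6 were higher in clone 1 than in wild type and lower in clone 2, and their clone differences were called under every alternative run for that comparison, as were 10 of the 24 above. Both knockout groups are single clones, so a difference between them cannot be told apart from the spread among clones.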

How the results depend on the processing

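The number of genes called in clone 1 against wild type was 989 with a minimum fold of 1.5, 2205 to 4348 when single libraries were left out (lowest without clone 1 replicate 2) and 3138 to 4650 under the other alternatives. For clone 2 against wild type it was 1668 to 4010 without single libraries. Clone 1 against clone 2 gave 813 genes with no low-count filter, 247 with libraries thinned to equal depth and 156 to 1207 without single libraries. Genes changed in clone 1 and not in clone 2 numbered 311 with no filter, 109 after thinning and 69 to 430 without single libraries, and genes of opposite direction 7 with DESeq2, 7 after thinning and 7 to 15 without single libraries. With a mean of at least 5 CPM, 3 genes were counted in clone 1 only and 9 in wild type only, against 9 to 27 and 18 to 29 without single libraries. The share of called genes that were higher moved from 47.9% to 57.2% with no filter and 55.2% without wild-type replicate 2. Mki67 stayed between -3.65 and -3.31, and between -3.65 and -3.47 without single libraries. Of the 268 named genes 217 kept direction and call under every alternative but the minimum fold, which ended 94 calls. The 1 reversal was Col1a2 (0.17, adjusted p = 0.460 without wild-type replicate 2), a gene not called to begin with; without wild-type replicate 1 it was at -0.52.

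With the replicate number as a block the counts were 4447 in clone 1 and 3955 in clone 2 against wild type, 635 between the clones, 232 for changes not seen in clone 2 and 14 for opposite directions, and no call of a named gene was lost. The numbers gave no pairing common to all groups. Deviations of same-numbered libraries correlated by 0.409 between clone 1 and wild type, but by -0.195 between clone 2 and wild type and -0.178 between the clones. Depth limits low genes most in wild-type replicate 1, where 3 counts are 0.814 CPM.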
